A study of Mus musculus with 9 samples.

Results

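Cytochrome P450 families 1 to 3 hold the liver enzymes that oxidise drugs, solvents and other foreign chemicals. Their genes were taken from the array annotation by name, as every probe set that carries exactly 1 gene symbol made of Cyp, a family number from 1 to 3, a subfamily letter and a gene number. The brightest probe set stood for a gene, by mean log2 signal over 8 arrays. This gave 43 genes of the 18193 with a probe set of their own, from 52 probe sets, and measured values decided only which probe set stood for a gene. Of these, 37 were bright enough to be tested among 12293 genes. The other 6, Cyp1b1, Cyp2b19, Cyp2c65, Cyp2d12, Cyp2j11 and Cyp2j13, were above the array median on fewer than 3 arrays. Cyp2a4 and Cyp2a5 share 1 probe set, as do Cyp3a41a and Cyp3a41b, so these 4 genes are not among the 43.

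The livers came from female MRL +/+ mice, an inbred strain that develops lupus-like autoimmunity with age, killed at 11 weeks. For 6 weeks the mice received 2 intraperitoneal injections a week of 100 µl corn oil, alone (control) or with 0.2 mmol/kg dichloroacetyl chloride (DCAC) or dichloroacetic anhydride (DCAA). The last injection preceded death by 24 h. Each group had 3 mice with 1 array each. All groups thus share strain, sex, age, vehicle and injection schedule, although the sample labels call the controls untreated. DCAC is an acyl chloride and DCAA the matching anhydride, and both react by handing a dichloroacetyl group to nucleophiles such as protein amines.

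P450 enzymes are heme proteins of the endoplasmic reticulum that insert oxygen into their substrates, with electrons supplied by P450 reductase and cytochrome b5. In liver the family 1 genes are controlled through the aryl hydrocarbon receptor, and the Cyp2b, Cyp2c and Cyp3a genes largely through the nuclear receptors CAR and PXR, while HNF4A keeps many of them active in hepatocytes. Cyp2e1, Cyp1a2 and several Cyp2c genes are strongest in the hepatocytes around the central vein, and a number of mouse Cyp2b, Cyp2d and Cyp3a genes differ between females and males. Cyp2e1 oxidises trichloroethene, a solvent of which DCAC is a reactive metabolite, and this links the family to the exposure studied.

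The deposited values are signals on a linear scale, and array medians lay between 157 and 214. The array labelled control 2 stood apart, with lower liver markers and far higher kidney markers. Comparisons therefore use control 1 and control 3, and control 2 is described separately at the end. The 3'/5' ratio also differed between arrays. This measure, which compares signal from the end and the start of the pyruvate carboxylase transcript and climbs as RNA degrades or labelling shortens, ran from 2.85 to 3.99 over the controls, DCAC 1 and DCAC 2. It ran from 6.43 to 12.8 for DCAC 3 and every DCAA array, so for DCAA against control this quality measure and the compound cannot be told apart. With 2 or 3 mice a group, the number of arrays limits the precision.

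The spread between mice differed widely from gene to gene. On all 8 arrays 33 of the 37 lay above the array median. The exceptions were Cyp2d34, above it on 4 arrays, Cyp2j9 and Cyp2u1, each on 6, and Cyp2c55, on 7. The ratio of the highest to the lowest of the 8 signals had a median of 1.55 and ranged from 1.13 for Cyp2c29 to 4.96 for Cyp2c55. For 17 genes it was under 1.5, and for 12 it was at least 2.

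**Figure D1:**
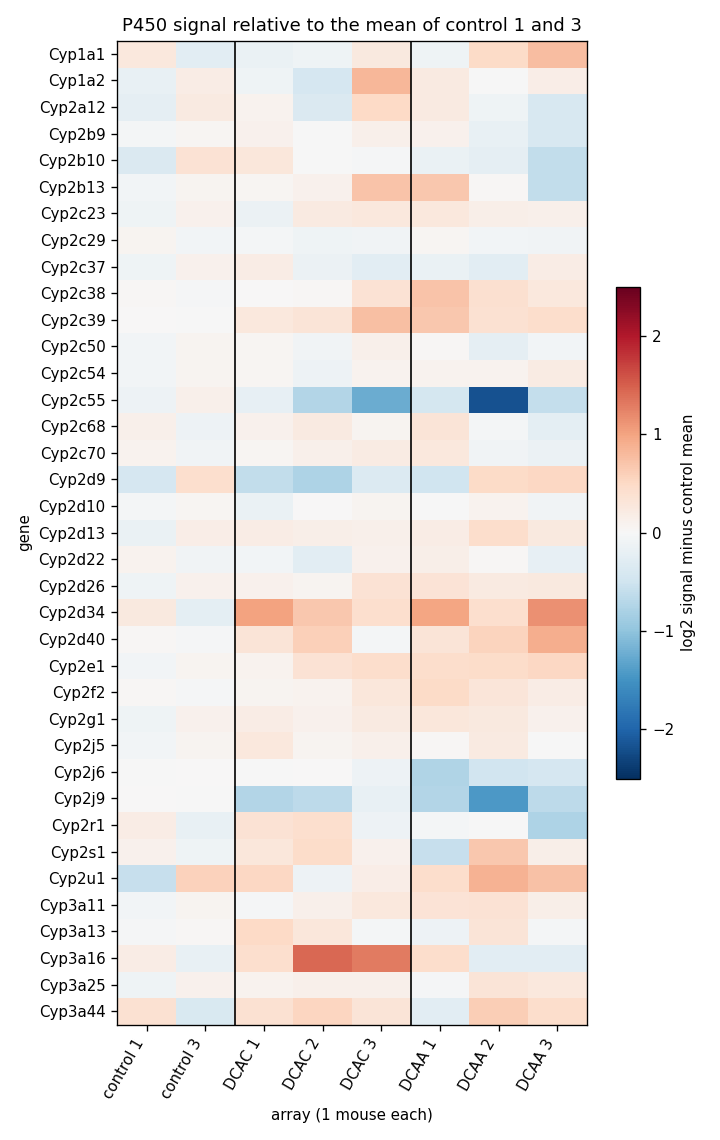
Signal of each of the 37 tested genes (rows) on each of the 8 arrays (columns, 1 mouse each), as log2 signal minus the mean of control 1 and control 3; red is higher and blue is lower. Most rows are pale across all arrays, while Cyp3a16 is red on DCAC 2 and DCAC 3, Cyp2e1 and Cyp2c39 are light red with both compounds, and Cyp2c55, Cyp2j6 and Cyp2j9 are blue on the DCAA arrays.

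Setting DCAC livers against corn oil livers asks whether the acyl chloride altered these enzymes' transcripts. None of the 37 genes was called, meaning an adjusted p under 0.05 (limma with Benjamini-Hochberg adjustment over all 24531 probe sets tested, as for every adjusted p here), while 7 of 12293 genes were, a share of 0.0569%. The smallest adjusted p among the 37 was 0.710, for Cyp3a16. At an unadjusted p under 0.05 stood 2 of 37 genes, or 5.41%, beside 5.45% of all genes. Every DCAC array exceeded both controls for 8 of 37 genes, or 21.6%, beside 13% of all genes, and every one lay below both for 2, or 5.41%, beside 11.6%. The median log2 difference of the 37 was 0.12, with 27 positive and 10 negative, against -0.0012 over all genes. That positive median was not kept under quantile normalization, where it was -0.019 with 16 positive and 21 negative.

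With DCAA the picture was similar, again with no gene of the 37 called, while 15 of 12293 genes, or 0.122%, were. At an unadjusted p under 0.05 stood 8 of 37, or 21.6%, beside 13.2% of all genes, and the smallest adjusted p was 0.235, for Cyp2e1. All DCAA arrays lay above both controls for 12 genes, or 32.4%, beside 17.1%, and below both for 3, or 8.11%, beside 15.5%. The median log2 difference was 0.079, with 24 positive and 13 negative. It was -0.033 with quantile normalization and -0.036 with a common array median, a scaling that moved the median of all genes to -0.12. A common array median shifts every gene alike, so the family median relative to all genes stayed at 0.079 by construction. With quantile normalization the family median relative to all genes was -0.024.

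Markers of hepatocytes stood higher with DCAA, while with DCAC they overlapped the controls. Their summed signal over 12 genes was 424521 and 425069 on the controls, 412267 to 546449 with DCAC and 520330 to 574795 with DCAA. Of the 12, 9 lay above both controls on every DCAA array, beside 17.1% of all genes, and 0 on every DCAC array, beside 13%. None of the 12 was called, and Hnf4a, among them, was at -0.046 in log2 with DCAA. These and the other markers were read under the deposited scaling alone. Markers of neutrophils also stood higher, with sums of 1294 to 1721 on the controls, 2651 to 2892 with DCAC and 1822 to 4283 with DCAA over 8 genes, of which Camp was not above the median on any of the 8 arrays. The 10 markers of hepatocytes around the central vein summed to 52837 and 64561 on the controls, 69619 to 83672 with DCAC and 74144 to 83208 with DCAA. Rnase4, the brightest, had means of 25834, 34902 and 37674 for control, DCAC and DCAA, and Glul of 11588, 11865 and 12350. Of the 10, 2 lay above both controls on every DCAC array, beside 13% of all genes. On every DCAA array 3 lay above both and 1, Rhbg, below both, beside 17.1% and 15.5%. Kupffer cell and macrophage markers, over 11 genes, summed to 10396 and 36661.5 on the controls, 10851 to 16902 with DCAC and 14056 to 15994 with DCAA. Their median log2 differences were -0.48 and -0.43, but control 1 had the lowest sum of the 8 arrays and control 3 the highest. Of the 11, 0 lay below both controls on every DCAC array and 0 on every DCAA array, beside 11.6% and 15.5% of all genes. The part of all these markers in the P450 values was not tested. In whole liver, fewer cells of a type and less RNA per cell cannot be told apart.

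The intervals show how much change the arrays leave room for. Against control, the 95% interval lay wholly within 1.5-fold either way for 19 of the 37 genes with DCAC and for 14 with DCAA, beside 26.4% and 20.9% of all genes. It lay within 2-fold for 29 and 31 of the 37. Its median reach was 1.32-fold either way for the 37 genes and 1.47-fold for all genes tested. The estimate itself was past 1.5-fold for 3 genes with DCAC (Cyp2c55, Cyp2d34 and Cyp3a16) and for 5 with DCAA (Cyp2c55, Cyp2d34, Cyp2d40, Cyp2j9 and Cyp2u1), beside 9.63% and 16.2% of all genes. Past 2-fold stood only Cyp3a16 with DCAC and Cyp2c55 with DCAA.

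**Figure D2:**
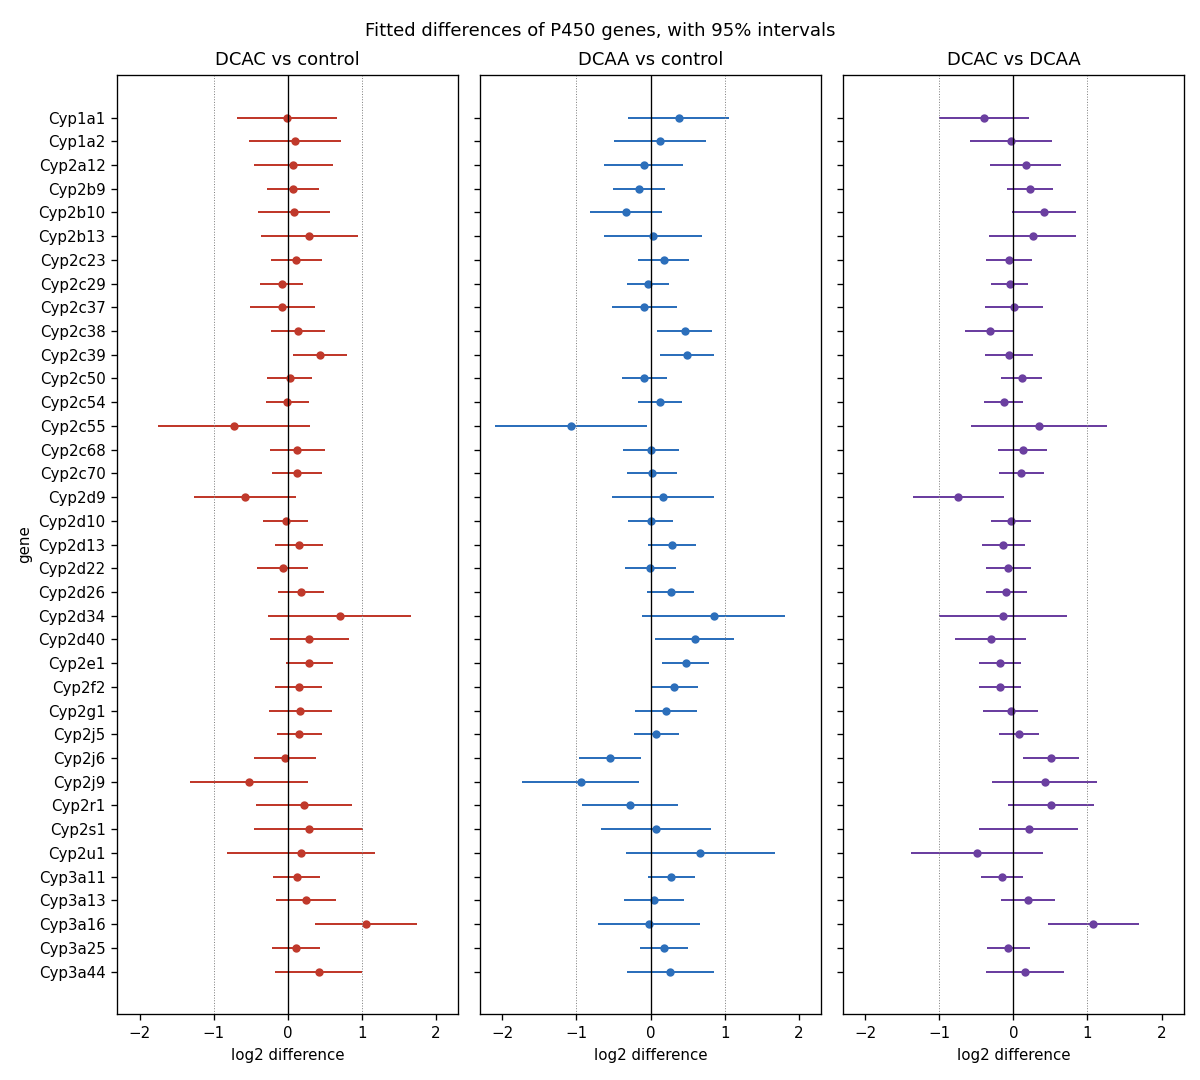
Fitted log2 difference (point) and 95% interval (line) of each of the 37 tested genes for DCAC against control, DCAA against control and DCAC against DCAA; the dotted lines mark 2-fold. Most intervals cross 0, and those that do not belong to Cyp3a16 and Cyp2c39 for DCAC, to Cyp2e1, Cyp2c39, Cyp2c38, Cyp2j6, Cyp2j9, Cyp2d40, Cyp2c55 and Cyp2f2 for DCAA, and to Cyp3a16, Cyp2j6 and Cyp2d9 between the compounds.

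The family 1 enzymes are the classical readout of the aryl hydrocarbon receptor, so their promoters are shown beside Cyp2e1, which is not controlled by it. The 80 bases before the start site are from RefSeq, build GRCm38.p6, and capitals mark TATAAA and GCGTG, the core of the receptor's response element, on either strand.
Cyp1a1 (chr9:57697533-57697612, plus strand): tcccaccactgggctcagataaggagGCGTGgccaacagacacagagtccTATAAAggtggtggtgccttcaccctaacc
Cyp1a2 (chr9:57683656-57683735, minus strand): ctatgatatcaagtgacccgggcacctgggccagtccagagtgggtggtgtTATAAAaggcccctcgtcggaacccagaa
Cyp2e1 (chr7:140763739-140763818, plus strand): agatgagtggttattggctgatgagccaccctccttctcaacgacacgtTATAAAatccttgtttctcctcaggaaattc
GCGTG lies in this stretch of Cyp1a1 and in neither of the others, and all 3 carry TATAAA, starting at position -30, -29 and -31. These letters describe the window and say nothing of binding.

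Cyp1a1, which oxidises polycyclic aromatic hydrocarbons, had signals of 379 and 266 on the control arrays, 284, 294 and 375 with DCAC, and 294, 442 and 545 with DCAA. The controls enclosed all DCAC values, and 2 of the 3 DCAA arrays stood above both. The difference was -0.0099 (log2, 95% interval -0.69 to 0.67, adjusted p = 0.998) for DCAC and 0.38 (log2, 95% interval -0.30 to 1.06, adjusted p = 0.646) for DCAA. Cyp1a2, which N-hydroxylates arylamines and clears caffeine, had signals of 14029.6 and 18364 on the control arrays, 14811, 11921 and 28518 with DCAC, and 18815, 15879 and 18015 with DCAA. A single array, DCAC 3, held the highest value and set the spread of that group. Its difference was 0.095 (log2, 95% interval -0.52 to 0.71, adjusted p = 0.992) for DCAC and 0.13 (log2, 95% interval -0.49 to 0.74, adjusted p = 0.886) for DCAA. With a term in the fit for the high or low 3'/5' ratio of an array, the value for DCAA turned to -0.98. Such a term is set by DCAC 3 against DCAC 1 and DCAC 2 alone, so that value rests on 1 array and is no DCAA difference corrected for RNA quality. Among arrays of low ratio DCAC 1 and DCAC 2 differed from the controls by -0.27. Cyp1b1, an enzyme found mainly outside the liver, was dim, at 89.0 to 196 on the 8 arrays, and was not tested.

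The Cyp2b genes include Cyp2b10, the standard target of CAR, and Cyp2b9 and Cyp2b13, which are more active in female than in male liver. Promoters of the last 2 are shown because they are nearly identical, which says nothing of the transcripts that the probes read. The 250 bases before each start site (RefSeq, GRCm38.p6) differ at 2 positions, shown in capitals, and are 99.2% identical.
Cyp2b9 (chr7:26173159-26173408, plus strand): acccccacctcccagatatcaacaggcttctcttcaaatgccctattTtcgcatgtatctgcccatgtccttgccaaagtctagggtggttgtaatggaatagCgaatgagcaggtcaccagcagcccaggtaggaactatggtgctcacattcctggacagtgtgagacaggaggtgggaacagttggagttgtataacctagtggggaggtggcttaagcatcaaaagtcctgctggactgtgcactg
Cyp2b13 (chr7:26061245-26061494, plus strand): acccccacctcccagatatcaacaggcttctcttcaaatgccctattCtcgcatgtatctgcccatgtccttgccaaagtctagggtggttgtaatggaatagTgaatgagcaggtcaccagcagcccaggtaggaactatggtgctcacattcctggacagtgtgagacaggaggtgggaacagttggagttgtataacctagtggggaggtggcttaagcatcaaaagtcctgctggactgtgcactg
Cyp2b9 had signals of 9170.2 and 9830.0 on the control arrays, 10291, 9386 and 10300.3 with DCAC, and 10265, 8329 and 7219.7 with DCAA. Cyp2b13 had signals of 7969 and 8819.9 on the control arrays, 8725, 9042 and 13695 with DCAC, and 13464, 8585 and 5445 with DCAA. DCAC 3 and DCAA 1 were highest and DCAA 3 lowest for Cyp2b13, and DCAA 3 was lowest for Cyp2b9 as well. The differences from control lay between -0.16 (Cyp2b9, DCAA, limma adjusted p = 0.721) and 0.29 (Cyp2b13, DCAC, limma adjusted p = 0.981).

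Cyp2b10 had signals of 1670.0 and 2761 on the control arrays, 2622, 2135 and 2100.3 with DCAC, and 1921, 1843 and 1406 with DCAA. DCAA 3 alone lay outside the span of the 2 controls, and all DCAA values were below all DCAC values. Against control the difference was 0.083 (log2, 95% interval -0.41 to 0.57, adjusted p = 0.991) for DCAC and -0.33 (log2, 95% interval -0.82 to 0.16, adjusted p = 0.575) for DCAA. Both further probe sets of Cyp2b10 were also lower with DCAA, by values of -0.72 and -0.52 in log2, with limma adjusted p of 0.328 and 0.424. On the first of them every DCAA array lay below both controls. Its brightest probe set and the first of the others carry the suffix s, so they can bind transcripts of related genes.

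Among the neighbouring subfamilies, Cyp2f2, which activates naphthalene, had signals of 32157 and 30628 on the control arrays, 32756, 33389 and 38345 with DCAC, and 43967, 38669 and 35546 with DCAA. Every treated array stood above both controls. The difference was 0.15 (log2, 95% interval -0.17 to 0.46, adjusted p = 0.981) for DCAC and 0.32 (log2, 95% interval 0.0050 to 0.64, adjusted p = 0.393) for DCAA, and quantile normalization took the values to -0.054 and 0.032. Cyp2g1, best known from olfactory epithelium, also stood above both controls on every treated array, by as little as 612.5 on DCAA 3 against 612.3 on control 3, with differences of 0.17 and 0.21 in log2. Cyp2a12, a bile acid and steroid hydroxylase, and Cyp2s1, an enzyme of epithelia, differed from control by 0.075 and 0.28 with DCAC and by -0.093 and 0.077 with DCAA, none passing. Their signals ran from 7601 to 14187 and from 205 to 487. Cyp2b19, a skin enzyme, was dim, at 56.2 to 302, and was not tested. The probe set shared by Cyp2a4 and Cyp2a5, steroid and coumarin hydroxylases, read 14863 and 18371 on the control arrays, 15615, 9322 and 24978 with DCAC, and 27469, 6469 and 6313 with DCAA, with a wide scatter in both treated groups.

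The Cyp2c genes form the largest group, with 11 genes of which 10 were tested, all on chromosome 19. With each compound 6 of the 10 differences from control were positive and 4 negative, and with quantile normalization 2 and 4 were positive. None passed. Cyp2c39, a retinoic acid hydroxylase, had signals of 13983 and 13761 on the control arrays, 16636, 17253 and 23236 with DCAC, and 22113, 18029.6 and 18854 with DCAA. All 6 treated arrays were above both controls, which were almost equal. Group means were 13872 ± 157 (SD, n = 2 arrays) for corn oil, 19041 ± 3646 (SD, n = 3 arrays) for DCAC and 19666 ± 2159 (SD, n = 3 arrays) for DCAA. The difference was 0.44 (log2, 95% interval 0.075 to 0.81, adjusted p = 0.934) for DCAC and 0.50 (log2, 95% interval 0.13 to 0.86, adjusted p = 0.262) for DCAA.

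Cyp2c38, its close relative and an arachidonic acid oxidase, had signals of 7277 and 6944 on the control arrays, 7179, 7284 and 9155 with DCAC, and 11690.4, 9344 and 8539 with DCAA. The DCAA arrays lay above both controls, while DCAC 1 and DCAC 2 were level with them. Its difference was 0.14 (log2, 95% interval -0.23 to 0.51, adjusted p = 0.987) for DCAC and 0.46 (log2, 95% interval 0.092 to 0.83, adjusted p = 0.302) for DCAA. Within the arrays of low ratio, DCAC minus control was 0.025 for Cyp2c38 and 0.29 for Cyp2c39.

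Cyp2c55, which hydroxylates arachidonic acid, ran the other way and varied most between mice, with signals of 488 and 587 on the control arrays, 466, 321 and 227 with DCAC, and 394, 118 and 354 with DCAA. Every treated array was below both controls, by little on DCAC 1 and by most on DCAA 2. The difference was -0.72 (log2, 95% interval -1.75 to 0.30, adjusted p = 0.978) for DCAC and -1.07 (log2, 95% interval -2.10 to -0.049, adjusted p = 0.382) for DCAA, and the latter was -0.52 without DCAA 2. Cyp2c29, a phenobarbital-inducible epoxygenase, was the steadiest of the 37, at 31470.3 to 35430.4, with differences of -0.084 (log2, 95% interval -0.37 to 0.20, adjusted p = 0.991) and -0.033 (log2, 95% interval -0.32 to 0.25, adjusted p = 0.940). Cyp2c70, which makes muricholic acids in mouse bile, had signals of 29354 and 26011 on the control arrays, 28438, 30190.4 and 31686 with DCAC, and 33276, 26175 and 25044 with DCAA. Its groups overlapped, with differences of 0.12 (log2, 95% interval -0.22 to 0.46, adjusted p = 0.987) and 0.016 (log2, 95% interval -0.32 to 0.35, adjusted p = 0.978). The epoxygenases Cyp2c37 and Cyp2c50 differed by -0.072 and 0.028 with DCAC and by -0.083 and -0.084 with DCAA. For Cyp2c23, Cyp2c54 and Cyp2c68 all values were between -0.0032 and 0.18, and Cyp2c23 and Cyp2c54 stood above both controls on every DCAA array. Signals ran from 14344 to 19108 for Cyp2c23, from 12377 to 15665 for Cyp2c54 and from 14794 to 21909 for Cyp2c68. Cyp2c65, a gene of the intestine, was dim, at 3.90 to 118, and was not tested.

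The Cyp2d genes, relatives of the human drug enzyme CYP2D6, numbered 8, with 7 tested, on chromosome 15. With DCAC 4 of the 7 differences from control were positive and 3 negative, with DCAA 5 and 2, and none passed. For DCAC that split was 3 and 4 with quantile normalization and 6 and 1 with a common median. Cyp2d9, a testosterone 16-alpha hydroxylase typical of male liver, had signals of 1019 and 1834 on the control arrays, 888, 796 and 1083 with DCAC, and 972, 1916 and 1946 with DCAA. The 3 DCAC values were close together, while the controls and the DCAA mice spread widely. Against control the difference was -0.58 (log2, 95% interval -1.27 to 0.11, adjusted p = 0.967) for DCAC and 0.17 (log2, 95% interval -0.52 to 0.85, adjusted p = 0.859) for DCAA. Without control 1 these were -1.003 and -0.26, and without control 3 they were -0.16 and 0.59. The DCAA value was also 0.50 without DCAA 1, and near 0 without DCAA 2 or DCAA 3. Cyp2d40 had signals of 532 and 514 on the control arrays, 657, 793 and 504 with DCAC, and 656, 769 and 983 with DCAA. All DCAA arrays exceeded both controls, with a difference of 0.60 (log2, 95% interval 0.066 to 1.13, adjusted p = 0.349). Cyp2d34 was dim, at 97.2 to 255, and stood above both controls on all 6 treated arrays, with 0.70 (log2, 95% interval -0.26 to 1.67, adjusted p = 0.978) for DCAC and 0.85 (log2, 95% interval -0.12 to 1.82, adjusted p = 0.455) for DCAA. Cyp2d22 differed by -0.071 (log2, 95% interval -0.42 to 0.27, adjusted p = 0.991) and -0.0036 (log2, 95% interval -0.35 to 0.34, adjusted p = 0.996), and its second probe set had the opposite sign with DCAC, at 0.022. Cyp2d13 and Cyp2d26 lay above both controls on every DCAA array, at 0.29 and 0.27, and Cyp2d10 was at -0.030 with DCAC. Signals ran from 4602 to 6969.5 for Cyp2d13, from 15469 to 21181 for Cyp2d26 and from 17789 to 21351 for Cyp2d10. Cyp2d12, at 42.2 to 159.9, was not tested.

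Cyp2e1, the enzyme of ethanol and small chlorinated solvents, had signals of 35223 and 38682 on the control arrays, 39127, 47295 and 49842 with DCAC, and 50308, 50616 and 52719 with DCAA. All treated arrays were above both controls, DCAA mice above DCAC mice, and the DCAA values were close together. The means were 36952 ± 2446 (SD, n = 2 arrays) for corn oil, 45421 ± 5598 (SD, n = 3 arrays) for DCAC and 51214 ± 1312 (SD, n = 3 arrays) for DCAA. The difference was 0.29 (log2, 95% interval -0.027 to 0.61, adjusted p = 0.967) for DCAC and 0.47 (log2, 95% interval 0.15 to 0.79, adjusted p = 0.235) for DCAA, which is 1.39-fold with bounds of 1.11 and 1.73. Neither passed. Quantile normalization, which forces the brightest probe sets of every array to the same values, left 0.060 and 0.040. The 12 hepatocyte markers had a median difference from control of 0.36 with DCAA. Among them Alb, the plasma protein albumin, was at 0.48 (limma adjusted p = 0.268) and Hnf4a at -0.046. Their part in the Cyp2e1 value was not tested.

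The Cyp2j genes on chromosome 4 encode epoxygenases of arachidonic acid. Of 5 genes 3 were tested. Cyp2j5, a gene of kidney and liver, had signals of 14923 and 16334 on the control arrays, 18736, 16371 and 17156 with DCAC, and 15940.0, 18247 and 15422 with DCAA. It differed from control by 0.16 (log2, 95% interval -0.15 to 0.46, adjusted p = 0.981) with DCAC and 0.079 (log2, 95% interval -0.23 to 0.38, adjusted p = 0.851) with DCAA. Its DCAC arrays all lay above both controls, but the second probe set had the opposite sign with DCAC. Cyp2j6 had signals of 848 and 850.3 on the control arrays, 845, 854 and 779 with DCAC, and 502, 613 and 635 with DCAA. Controls and DCAC mice were level and all DCAA mice were lower, with a difference of -0.55 (log2, 95% interval -0.97 to -0.13, adjusted p = 0.280) for DCAA and -0.041 for DCAC. Its second probe set was at -0.39 with DCAA and overlapped the controls.

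Cyp2j9 was lower on every treated array than on either control, with signals of 340.4 and 334 on the control arrays, 202, 215 and 297 with DCAC, and 204, 124 and 213 with DCAA. Its difference was -0.52 (log2, 95% interval -1.32 to 0.27, adjusted p = 0.978) for DCAC and -0.94 (log2, 95% interval -1.74 to -0.15, adjusted p = 0.324) for DCAA. It was above the array median on 6 of the 8 arrays, so the dimmest values are near the lower end of what was tested. Cyp2j11, at 23.9 to 385, and Cyp2j13, at 17.5 to 161, were not tested. Cyp2r1, the vitamin D 25-hydroxylase, had signals of 463 and 363 on the control arrays, 525, 552 and 377 with DCAC, and 395, 405 and 239.5 with DCAA. Its groups overlapped, with differences of 0.22 (log2, 95% interval -0.43 to 0.87, adjusted p = 0.987) and -0.28 (log2, 95% interval -0.93 to 0.37, adjusted p = 0.736). Cyp2u1, a fatty acid hydroxylase, was dim and spread between 96.1 and 259, with control 1 lowest, and its difference was 0.67 (log2, 95% interval -0.33 to 1.67, adjusted p = 0.579) for DCAA.

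The Cyp3a genes on chromosome 5 are the targets of PXR and oxidise steroids, bile acids and many drugs. All 5 were tested. With DCAC 5 of the 5 differences were positive, and 3 of 5 with quantile normalization, while with DCAA 4 of 5 were positive, and 2 of 5 with quantile normalization and 3 of 5 with a common median. Cyp3a16, first described in fetal liver, had signals of 593 and 453 on the control arrays, 697, 1401 and 1274 with DCAC, and 706, 432 and 434 with DCAA. All DCAC arrays exceeded both controls, DCAC 2 and DCAC 3 by far, while DCAC 1 was near DCAA 1. This gave means of 523 ± 98.6 (SD, n = 2 arrays) for corn oil, 1124 ± 375 (SD, n = 3 arrays) for DCAC and 524 ± 157 (SD, n = 3 arrays) for DCAA. The difference from control was 1.05 (log2, 95% interval 0.36 to 1.74, adjusted p = 0.710) for DCAC, or 2.08-fold, and -0.024 (log2, 95% interval -0.71 to 0.67, adjusted p = 0.984) for DCAA. The DCAC value was 1.06 with quantile normalization and 0.93 within the arrays of low 3'/5' ratio, where DCAC has 2 mice. Cyp3a16 has near-identical copies among the Cyp3a genes, and its probe set carries no suffix that marks shared probes, so whether it also reads those copies is uncertain.

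Cyp3a11, the main drug-oxidising Cyp3a of adult mouse liver, had signals of 35354 and 38359 on the control arrays, 36062, 40397 and 44125 with DCAC, and 46438, 47391 and 40536 with DCAA. The DCAA arrays stood above both controls, and the DCAC arrays overlapped them. Its difference was 0.12 (log2, 95% interval -0.20 to 0.44, adjusted p = 0.987) for DCAC and 0.28 (log2, 95% interval -0.039 to 0.60, adjusted p = 0.456) for DCAA, and quantile normalization turned both signs, to -0.13 and -0.12. Cyp3a44, a gene more active in females, differed by 0.42 (log2, 95% interval -0.17 to 1.01, adjusted p = 0.978) and 0.27 (log2, 95% interval -0.32 to 0.85, adjusted p = 0.721), with control 3 lowest of the 8 arrays. Cyp3a13 was at 0.25 (log2, 95% interval -0.16 to 0.65, adjusted p = 0.978) and 0.049 (log2, 95% interval -0.36 to 0.45, adjusted p = 0.937). Cyp3a25 was at 0.11 (log2, 95% interval -0.21 to 0.44, adjusted p = 0.987) and 0.18 (log2, 95% interval -0.14 to 0.51, adjusted p = 0.643). For these last 3 genes the groups overlapped in both comparisons. The probe set shared by Cyp3a41a and Cyp3a41b read 37667 and 34089 on the controls, 36443, 40521 and 35098 with DCAC and 36103, 43437 and 43979.6 with DCAA, again with overlap.

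**Figure D3:**
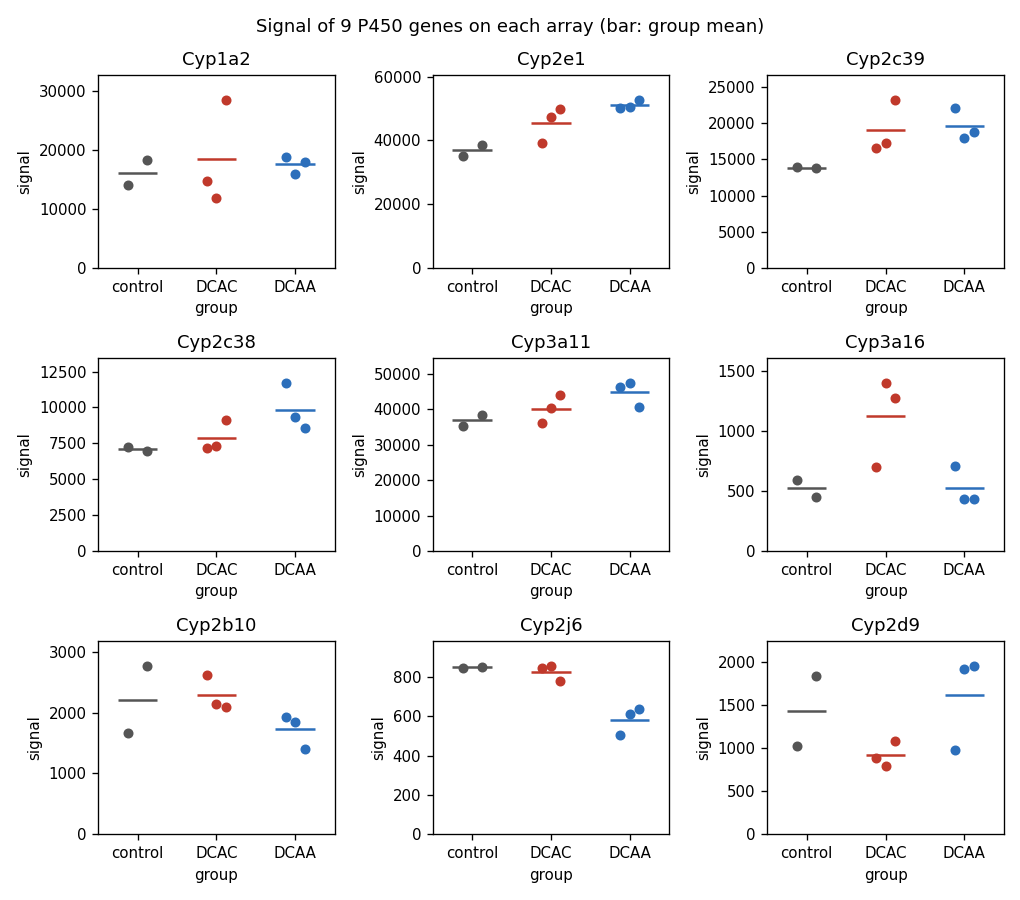
Signal on a linear scale from 0 for 9 of the genes, with 1 point per array and a bar at the group mean, for control (arrays 1 and 3), DCAC and DCAA. Cyp2e1 and Cyp2c39 are above control with both compounds, Cyp2j6 is lower with DCAA alone among these arrays, and 2 of the 3 DCAC points of Cyp3a16 lie far above the rest.

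DCAC and DCAA were given at the same molar dose, by the same route and for the same time. They share the dichloroacetyl group, which is bound to chlorine in DCAC and through oxygen to another dichloroacetyl group in DCAA. The same molar dose is therefore not the same dose of that group. None of the 37 genes was called between them, and 1 of 12293 genes was, or 0.00813%. At an unadjusted p under 0.05 stood 3 of 37, or 8.11%, beside 9.01% of all genes. All DCAC arrays were above all DCAA arrays for 2 genes, Cyp2b10 and Cyp2j6, or 5.41% beside 7.22%. They were below for 3 genes, Cyp2c54, Cyp2d13 and Cyp2e1, or 8.11% beside 7.09%. The median difference (DCAC minus DCAA) was -0.032, with 17 positive and 20 negative, and 0.15 with a common array median, which moved the median of all genes to 0.19.

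Cyp3a16 had the smallest p of the family between the compounds, at 1.08 (log2, 95% interval 0.46 to 1.70, adjusted p = 0.433), although DCAA 1 slightly exceeded DCAC 1. Leaving out 1 array at a time gave values from 0.89 to 1.39. Every DCAA array has a high 3'/5' ratio, and among the DCAC arrays DCAC 3 alone has, so ratio and compound are partly mixed in this comparison. Within the arrays of high ratio, where DCAC has 1 mouse, the Cyp3a16 difference was 1.32. Cyp2j6 was at 0.51 (log2, 95% interval 0.13 to 0.88, adjusted p = 0.465), and at 0.50 by its second probe set. Cyp2d9 was at -0.75 (log2, 95% interval -1.36 to -0.13, adjusted p = 0.489), with the DCAA 1 signal of 972 lying among those of the DCAC mice. Cyp2b10 was at 0.41 (log2, 95% interval -0.023 to 0.85, adjusted p = 0.544), and its further probe sets were at 0.72 and 0.72 (limma adjusted p = 0.465 and 0.451), with every DCAC array above every DCAA array on each. Cyp2c38 and Cyp2r1 completed the 6 genes of smallest p, at -0.32 (log2, 95% interval -0.65 to 0.0074, adjusted p = 0.539) and 0.50 (log2, 95% interval -0.076 to 1.08, adjusted p = 0.564). Within the arrays of high ratio, with 1 DCAC mouse, Cyp2j6 was at 0.42, Cyp2d9 at -0.50 and Cyp2b10 at 0.30. There Cyp2c38 was at -0.094 and Cyp2r1 at 0.16.

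For other members the interval bounds the difference between the compounds. It lay wholly within 1.5-fold for 21 of the 37 genes, against 32.1% of all genes, and within 2-fold for 29. Cyp2e1 was at -0.18 (log2, 95% interval -0.47 to 0.10, adjusted p = 0.657). Under the deposited scaling alone, a Cyp2e1 signal with DCAC more than 1.07 times that with DCAA lies outside the interval. The Cyp2e1 value turned to 0.0059 with a common array median and to 0.020 with quantile normalization. Cyp2c29 was at -0.051 (log2, 95% interval -0.31 to 0.20, adjusted p = 0.903) and Cyp3a25 at -0.070 (log2, 95% interval -0.36 to 0.22, adjusted p = 0.880). Cyp1a1 and Cyp1a2 were at -0.39 (log2, 95% interval -1.002 to 0.22, adjusted p = 0.652) and -0.032 (log2, 95% interval -0.58 to 0.52, adjusted p = 0.976). Leaving out 1 array took the Cyp1a2 value to -0.40 (without DCAC 3) or up to 0.23 (without DCAC 2). Among the Cyp2d genes all 7 differences were negative, from -0.75 to -0.030, but 1 of the 7 was positive with quantile normalization and 5 were with a common array median, and the second probe set of Cyp2d22 was at 0.11. The 3 Cyp2b and the 3 Cyp2j genes were positive, from 0.077 (Cyp2j5) to 0.51 (Cyp2j6), with none passing, and remained so with quantile normalization. A common array median raised every value by the same amount, so it could not turn a positive sign. This sign was not uniform elsewhere: the second probe set of Cyp2j5 was at -0.18, and Cyp2b13 was at -0.067 without DCAA 3. Comparisons of each compound with control use the same 2 control arrays, so their values are not independent of each other.

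Sequence features that the choice of genes did not use were counted in the RefSeq promoters of build GRCm38.p6, which run from 250 bases before to 50 after each start site. These held 35 of the 43 genes in 38 promoters, among 32851 in all. TATAAA occurred in 18 of the 38, or 47.4%, beside 13.6% of all promoters, on either strand. CAAAGTCCA, a form of the HNF4A element, occurred in 5, or 13.2%, beside 0.475%, and GCGTG in 8, or 21.1%, beside 32.4%. The nuclear receptor half-site AGGTCA occurred in 34.2%, beside 16.3%, AGTTCA in 7.89%, beside 14%, and the HNF1 half-site GTTAAT in 5.26%, beside 7.1%. Shares are of promoters, since 3 of the genes have more than 1. The 38 are not independent of each other. Those of Cyp2b9 and Cyp2b13 are nearly identical, and Cyp3a25 and Cyp2j13 each enter with overlapping windows. The stretches that hold CAAAGTCCA are shown because they join genes of 2 families, with the motif in capitals, from position -130 to -41.
Cyp3a11 (chr5:145879895-145879984, minus strand): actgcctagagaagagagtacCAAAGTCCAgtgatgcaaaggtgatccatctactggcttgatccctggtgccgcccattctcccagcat
Cyp3a16 (chr5:145469764-145469853, minus strand): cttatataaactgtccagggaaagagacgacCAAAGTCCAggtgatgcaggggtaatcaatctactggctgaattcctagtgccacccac
Cyp2c70 (chr19:40187327-40187416, minus strand): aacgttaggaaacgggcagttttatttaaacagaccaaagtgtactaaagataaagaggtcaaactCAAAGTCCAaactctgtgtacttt
Cyp2c68 (chr19:39741142-39741231, minus strand): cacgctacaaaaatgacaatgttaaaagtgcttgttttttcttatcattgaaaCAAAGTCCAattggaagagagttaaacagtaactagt
Cyp2c65 (chr19:39060876-39060965, plus strand): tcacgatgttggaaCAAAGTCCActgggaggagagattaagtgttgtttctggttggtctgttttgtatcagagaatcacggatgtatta
The motif starts at -109 in Cyp3a11, -99 in Cyp3a16, -64 in Cyp2c70, -77 in Cyp2c68 and -116 in Cyp2c65, counted with the start site at 0. Differences from control varied among these genes. Cyp3a16 was at 1.05 with DCAC and -0.024 with DCAA, Cyp3a11 at 0.12 and 0.28, Cyp2c70 at 0.12 and 0.016 and Cyp2c68 at 0.13 and 0.0076 in log2 against control. Hnf4a itself was at -0.031 and -0.046.

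Genes that control or serve these enzymes were read from lists set up by role. Of 15 tested regulators of P450 transcription none was called. An unadjusted p under 0.05 was held by 1 with DCAC and 3 with DCAA, beside 5.45% and 13.2% of all genes. Ppara, the fatty acid receptor, read 5184 and 4417 on the controls, 4895, 5115 and 9414 with DCAC, and 10835, 8778 and 9339 with DCAA. Its difference for DCAA was 1.01 (log2, 95% interval 0.48 to 1.53, adjusted p = 0.165). The high signals were those of the arrays of high 3'/5' ratio, DCAC 3 among them, and the part of that ratio was not tested. The coactivator Ppargc1a was at 0.79 (log2, 95% interval 0.35 to 1.24, adjusted p = 0.188) with DCAA. The bile acid receptor Nr1h4 was at 0.51 (log2, 95% interval 0.18 to 0.84, adjusted p = 0.693) with DCAC. The aryl hydrocarbon receptor Ahr was lower than both controls on every treated array, at -0.29 with DCAC and -0.48 with DCAA (limma adjusted p = 0.967 and 0.262). PXR, encoded by Nr1i2, was at -0.35 and -0.099, and CAR, encoded by Nr1i3, at 0.094 and -0.36. Ahr, Nr1i2 and Nr1i3 are named for their role, and not for their p.

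The 7 redox partners tested were Cyb5a, Cyb5b, Cyb5r1, Cyb5r3, Fdx1, Pgrmc1 and Pgrmc2. P450 reductase was not among them, so the main electron supply of these enzymes was not read. Among these 7, 11 genes of heme synthesis and breakdown, 3 further targets of the aryl hydrocarbon receptor and 14 further targets of CAR and PXR, none was called with either compound. At an unadjusted p under 0.05 stood 1 redox partner, higher with DCAC, 1 heme gene, lower with DCAA, and none of the 3. Of the CAR and PXR targets, 1 was lower with DCAC, and 1 was higher and 3 lower with DCAA. Over all genes the share at that p was 5.45% with DCAC and 13.2% with DCAA. Fdx1, the mitochondrial ferredoxin, was at 0.31 (log2, 95% interval 0.0033 to 0.62, adjusted p = 0.967) with DCAC. Alas1, the first enzyme of heme synthesis, read 4249.6 and 3798 on the controls, 3822, 8662 and 19626 with DCAC and 6975, 2219 and 1681 with DCAA. Its DCAC values spread over the widest range of the 3 groups, and its difference was 1.11 (log2, 95% interval -0.21 to 2.42, adjusted p = 0.967). Cpox, a later enzyme of the pathway, was at -0.89 (log2, 95% interval -1.44 to -0.34, adjusted p = 0.205) with DCAA, and Nqo1, a quinone reductase, at 0.38 (log2, 95% interval -0.099 to 0.86, adjusted p = 0.967) with DCAC. Gstm3, a glutathione transferase, was below both controls on all treated arrays, at -0.91 (log2, 95% interval -1.36 to -0.46, adjusted p = 0.392) with DCAC and -1.11 (log2, 95% interval -1.56 to -0.66, adjusted p = 0.0938) with DCAA, and Gsta2 was at -1.53 (log2, 95% interval -2.501 to -0.55, adjusted p = 0.216) with DCAA.

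The remaining oxidising and conjugating enzymes gave 1 call. Of 23 tested P450 genes of families 4 and above, 1 was called with DCAC. Cyp7a1, which commits cholesterol to bile acids, rose, at 2.03 (log2, 95% interval 1.42 to 2.65, adjusted p = 0.0312), and none was called with DCAA, where Cyp4a14, a fatty acid hydroxylase, was at -1.91 (log2, 95% interval -2.87 to -0.96, adjusted p = 0.163). At an unadjusted p under 0.05 stood 2 higher and 2 lower with DCAC, among them Cyp8b1, which shapes the bile acid pool, at 0.68 (log2, 95% interval 0.21 to 1.153, adjusted p = 0.791), and 1 higher and 2 lower with DCAA. Over all genes that share was 5.45% with DCAC and 13.2% with DCAA, in either direction. Cyp7a1 read 1559.8 and 3225 on the controls and 7461, 8507 and 12225 with DCAC, with no overlap, and without the trend in eBayes no probe set was called for DCAC. Among 15 glucuronosyltransferases and sulfotransferases and 7 flavin monooxygenases and epoxide hydrolases none was called. At an unadjusted p under 0.05 stood 1 lower with DCAC, and 2 higher and 1 lower with DCAA, beside the same 5.45% and 13.2% of all genes. Ugt2b34 was at 0.35 (log2, 95% interval 0.046 to 0.66, adjusted p = 0.337) with DCAA, and Ephx1, the microsomal epoxide hydrolase, at -0.50 (log2, 95% interval -0.95 to -0.055, adjusted p = 0.967) with DCAC and -0.51 (log2, 95% interval -0.96 to -0.067, adjusted p = 0.338) with DCAA. None of 6 tested genes higher in female liver and none of 7 higher in male liver was called, nor was any at an unadjusted p under 0.05 against control. Their median differences were -0.26 and -0.34 with DCAC and -0.18 and -0.027 with DCAA.

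On the array labelled control 2 most genes of the family were far lower. Of the 37 tested genes 31 lay below the range of the other 8 arrays, 5 within it and 1 above it. The median ratio of control 2 to the mean of controls 1 and 3 was 0.0354, against 0.996 over all genes tested. For 23 of the 37, or 62.2%, the ratio was under 0.1, as it was for 3.36% of all genes. Cyp3a25 read 17.2 on control 2 against 21722 and 25003 on the other controls, and Cyp1a2 read 27.7 against 14029.6 and 18364. Cyp2j5 was an exception, at 16101 against 14923 and 16334. Cyp2d26, between these extremes, read 6639 against 15469 and 17722, and Cyp2e1 6262 against 35223 and 38682.

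Markers of kidney epithelium moved with this. Their summed signal over 16 genes was 187321 there, against 2822 to 5945 on the remaining 8 arrays, and 15 of the 16 were above the median of control 2, all but Slc12a3. Slc34a1, the phosphate transporter of the proximal tubule, read 29632 on control 2 and 177 and 143 on the other controls, and Umod, the urinary protein uromodulin, 20921 against 68.3 and 58.9. Umod, Slc12a1, Slc12a3, Calb1, Cdh16 and Cubn were above the median on none of the other 8 arrays. The summed hepatocyte markers were 35010 on control 2. With all 9 arrays in the fit no gene of the 37 was called, and the family median moved to 1.69 for DCAC and 1.55 for DCAA, so this array decides both.

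**Figure D4:**
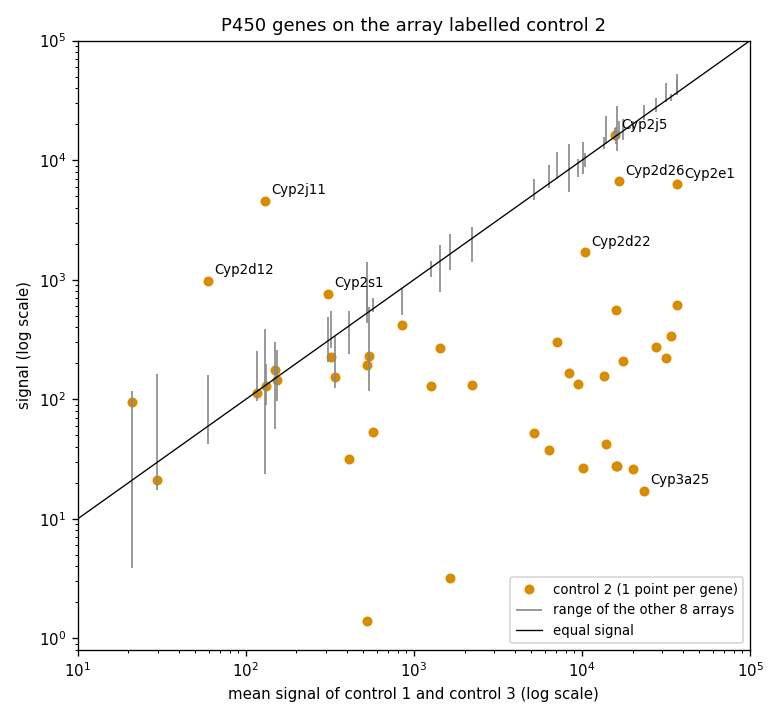
Signal of the 43 genes on control 2 (points) against their mean signal on control 1 and control 3, both on log scales, with the range of the other 8 arrays as grey lines and a diagonal of equal signal. Most bright genes lie far below the diagonal, Cyp2j5 lies on it, and Cyp2d12, Cyp2j11 and Cyp2s1 lie above their grey lines.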

How the data were processed

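Total RNA of 9 livers was amplified by in vitro transcription for Affymetrix arrays, per the labels. The authors deposited 1 linear signal intensity for each probe set, computed in GCOS per the submitters' processing notes, which give no version. The mean of every array, leaving aside the highest and lowest 2% of values, came to 500.0.

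Symbols came from the platform annotation. Of 45101 probe sets, 64 controls were left out, and 34945 carried 1 symbol, 932 several and 9160 none. The RefSeq table held all 43 gene identifiers and changed 0 of the symbols. Each array was floored at its 25th percentile and log2 transformed. The 24531 probe sets brighter than the array median on 3 or more of the 8 arrays were tested using limma 3.58.1 under R 4.3.3 (lmFit and eBayes with trend, all groups in 1 model, no covariate) and Benjamini-Hochberg adjustment, two-sided. The script was tested on simulated data. The mice were processed separately, per the design text.

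The genes, the lists and the tests were chosen with earlier results of these data known. The named genes follow a rule: full statistics go to the 6 genes of smallest p in each comparison and to a fixed list of family members, and up to 3 genes per other list are named, plus Ahr, Nr1i2, Nr1i3 and Hnf4a, chosen by role. Alternatives changed the scaling (quantile, common median), the floor (none, or an offset of 32), the filter (none), the trend (none) and the arrays or terms of the fit: the compared groups alone, all 9 arrays, each array left out, and a block for replicate number or for high and low 3'/5' ratio. The second brightest probe set was also used.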

Additional observations from a re-analysis of the deposited data

Results flagged for a closer look

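Signals on control 2, an array that the comparisons leave out, stood above every other array for 3 genes of the family. Cyp2j11 read 4550.4, against 23.9 to 385 on the other 8 arrays. Cyp2d12 read 977, against 42.2 to 159.9. Cyp2s1 read 762, against 205 to 487. Of 16 kidney markers on the array, 15 were above the median of control 2, all but Slc12a3, and their part in these values was not tested.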

How the results depend on the processing

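With each alternative, 0 genes of the family were called in any comparison. The count at an unadjusted p under 0.05 was 2, 8 and 3 of 37 for DCAC against control, DCAA against control and DCAC against DCAA in the reported limma fit. Shares over all genes were 5.45%, 13.2% and 9.01%. Over 27 genes in 3 comparisons, 1470 values were recomputed. Some alternatives keep the group means, so their signs were kept by construction. These were no filter, no trend, only the groups compared, and an array left out of the third group. For DCAC against DCAA, all 9 arrays and the replicate block also left each value unchanged. With these counted in, 1350 values kept their sign. Of the 120 that did not, 117 had 95% intervals that held 0 both before and after. The other 3 were Cyp2c70 for DCAA against control, at -0.27 with quantile normalization, and Cyp1a2 with the ratio class as a block, at -0.98 for DCAA against control and 0.70 for DCAC against DCAA; the cause was not tested.

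The family median for DCAC against control was 0.12, and -0.019 with quantile normalization, 0.19 with a common median and 1.69 with all 9 arrays. For DCAA against control it was 0.079, and -0.033, -0.036 and 1.55 in the same order, and 0.0082 with the ratio class as a block, a term set by DCAC 3 against DCAC 1 and DCAC 2 alone. For DCAC against DCAA it was -0.032, 0.15 with a common median and 0.057 with the ratio class. Leaving out 1 array gave 0.063 to 0.17, 0.063 to 0.13 and -0.050 to 0.032. The lowest for DCAC came without control 1, values for DCAA of 0.13 without control 3 and without DCAA 1, and the last turned positive without DCAC 1 and without DCAC 2 (0.025).

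Over all probe sets the calls numbered 8, 20 and 1 in the same order of comparisons. They were 1, 4 and 0 without the filter, 0, 0 and 0 without the trend or with all 9 arrays, and 2, 0 and 3 with the ratio class as a block. A common median gave 9 for DCAA against control and 0 for DCAC against DCAA, and only the groups compared gave 2 for the latter. Leaving out 1 array gave 2 to 14, 3 to 87 and 0 to 2 calls. For DCAC against control the count moved by over 1.5 times without either control, DCAC 2, DCAC 3 or DCAA 1, and was lowest without DCAC 3 and highest without DCAA 1. For DCAA against control it moved so without either control or any DCAA array and without DCAC 3 (36), lowest without DCAA 3 and highest without DCAA 1. For DCAC against DCAA it was 0 without any 1 DCAC array or DCAA 2, and 2 without either control.

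Correlations of deviations from the group means were -0.041 to 0.027 for 7 pairs of arrays that share a replicate number and -0.066 to 0.074 for 14 pairs that do not, and the mice were treated as unpaired. The replicate block left Cyp2e1 at 0.46 for DCAA against control.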
